A study of Mus musculus with 5 samples.

Results

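Open chromatin of SOX13lo γδ thymocytes was set against that of double-positive (DP) thymocytes, using the autosomal peaks of 1 ATAC-seq library of each, 2 of the 5 libraries of the series. In ATAC-seq a transposase inserts adapters where DNA is accessible, and a peak is a stretch where such insertions pile up. The SOX13lo list held 65744 autosomal peaks and the DP list 110707, of 332881 peaks on all chromosomes in the 5 lists. A peak counted as present in the other list when it met one of its peaks by at least 1 bp, and every count was made with all peaks and with equal numbers of top peaks by score.

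SOX13lo cells were γδ+ CD24+ thymocytes with low or absent CFP, sorted from TCRbeta KO.Sox13 ECFP KI/+ mice, in which 1 Sox13 allele carries the fluorescent reporter. DP cells came from wild type mice. Both were on C57BL/6. The other 3 libraries, used here only as values side by side, were the CFP-high fraction of the same reporter mice (SOX13hi) and the CFP-high and CFP-low fractions of reporter mice that also carried a Sox13 transgene (TCRbeta KO.Sox13tg+.Sox13 ECFP KI/+), called transgenic SOX13hi and transgenic SOX13lo. All 4 γδ groups shared the TCRbeta knockout and the reporter allele, and DP cells had neither, so cell type and genotype cannot be told apart in any difference below. The protocol gives 40000 cells for the γδ sorts. How many mice were used, and their age and sex, are not stated in the labels.

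DP thymocytes carry CD4 and CD8 together, have already rearranged the T cell receptor β locus, and express the RAG recombinase to rearrange the α locus. γδ thymocytes instead express a receptor of γ and δ chains, and those still CD24+ are recent products of that choice. SOX13 is a DNA-binding protein of the HMG box family, to which TCF1 and LEF1 also belong, and is known as an early factor of γδ cells, above all of those that go on to make IL-17.

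Each group held 1 library, so no difference has a replicate check and no p-value is given. Intervals are exact 95% intervals, Clopper-Pearson for shares and Poisson for counts, and cover counting error only. Read depth is unknown, and the DP list is the longer, which a deeper library could also give. The meaning of the deposited score is not stated, so it ranked peaks within a list only. Every line of the SOX13lo list carries the name SOX13hi-ATAC, and the sample label was followed. The labels give the DP and transgenic SOX13hi libraries the same index sequence. Swaps or carry-over between libraries were not tested.

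Labels were set against the data first at the knocked-out locus. At the 3′ end of Tcrb, the T cell receptor β locus, mm9 chr6:41483291-41503124 (19.8 kb) held 0 peaks in SOX13lo and in each of the other 3 γδ lists, against 52 in DP. The stretch was chosen as one without γδ peaks, so its 0 is a description, and it cannot tell SOX13lo from SOX13hi cells, the names mixed in the SOX13lo list. With equal numbers of peaks DP kept 36 there. Absence of peaks in this stretch cannot be told apart from absence of the DNA. Then 2 further loci were set beside the cell types of the labels. They were chosen with earlier results of these data known and stand farthest apart of the loci reported here. Other γδ loci, given below, went both ways, so the 2 describe the lists and are no independent check. Tcrg, the γ chain locus (chr13:19200001-19500000), held 67 SOX13lo regions (interval 51.9 to 85.1) against 19 DP regions (11.4 to 29.7), where a region is the union of overlapping peaks of both lists and counts for each list that has a peak in it. Cd8a and Cd8b1, which encode the CD8 chains (chr6:71200001-71400000), held 10 SOX13lo regions (4.80 to 18.4) against 71 DP regions (55.5 to 89.6). The 3 loci of B cell and myeloid genes, Pax5, Spi1 and Cebpa, held 18 SOX13lo and 11 DP regions in sum, with intervals that overlapped at each of the 3. Spi1, with 6 SOX13lo and 3 DP regions, and Cebpa, with 7 and 2, both of myeloid cells, nonetheless held at least 2 times more regions in SOX13lo, and their part in other results was not tested.

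By the 1 bp rule most SOX13lo peaks lay at sites also open in DP cells, and fewer DP peaks lay at sites open in SOX13lo. A reciprocal overlap of 50% lowered these shares to 14.7% for SOX13lo and 8.73% for DP with all peaks. With equal numbers it gave 13.4% for both lists. Of all SOX13lo peaks, 60.8% met a DP peak (60.5 to 61.2%), and of all DP peaks, 32.5% met a SOX13lo peak (32.2 to 32.8%). With 65744 peaks each the shares were 55.6% (55.2 to 56.0%) for SOX13lo and 48.6% (48.2 to 49.0%) for DP, so much of the gap between the first 2 shares went with the length of the DP list. To reach equal numbers 44963 DP peaks were left out, and 297 of 6631 DP peaks tied at the lowest score kept were drawn at random.

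Sharing followed peak strength. In SOX13lo the share meeting a DP peak was 36.7% in the lowest 10% by score and 89.8% in the highest 10%. In DP the share meeting a SOX13lo peak was 6.42% in the lowest 10% and 87.0% in the highest 10%. The strongest sites were thus mostly present in both lists, while weak sites made up most of what was held by 1 list: the median score was 11 for SOX13lo peaks not met and 21 for those met, and 8 and 37 for the same classes of DP peaks. Width behaved alike. SOX13lo peaks of 28 to 30 bp, 43.6% of that list, met DP in 45.2% of cases and those over 500 bp in 96.9%. For DP peaks of the same widths the shares were 14.6% and 95.3%. All these classes used all peaks, so list length was not evened out between SOX13lo and DP. A wider peak also meets others more easily by the 1 bp rule. Median width was 28 bp in the lowest 10% by score of both lists, and 248 bp (SOX13lo) and 139 bp (DP) in the highest. How much of the rise with score goes with width was not tested.

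**Figure D1:**
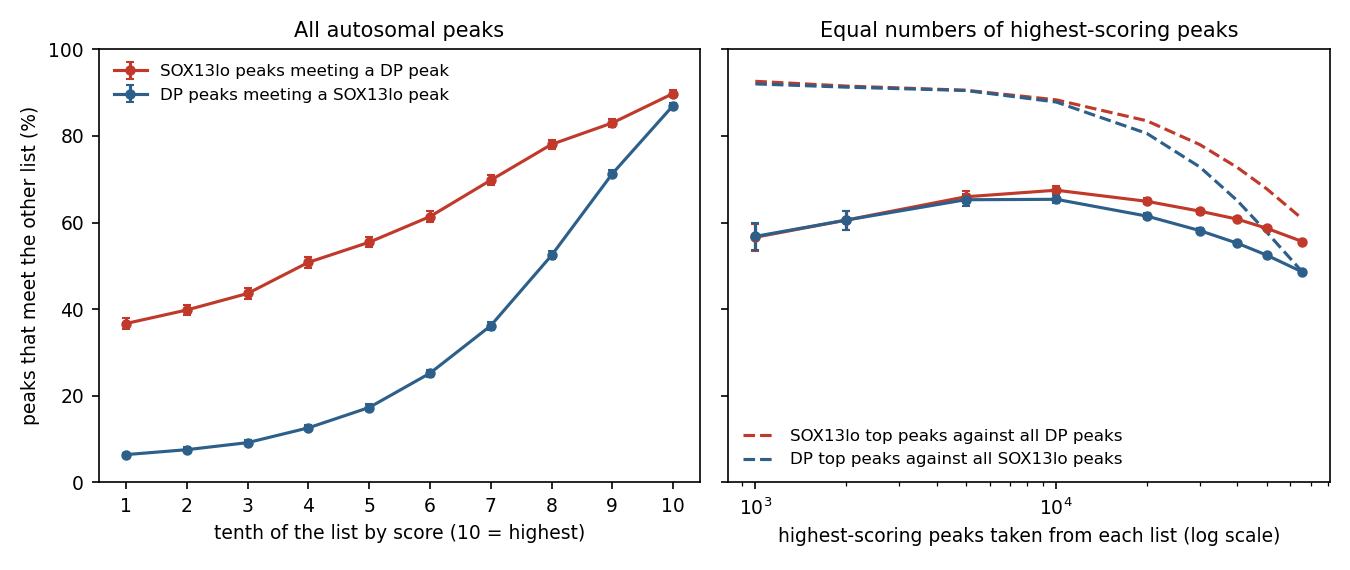
Share of autosomal peaks (%) that met the other list by at least 1 bp, in red for SOX13lo and in blue for DP, in 10 classes of equal size by score (left, all peaks) and by the number of highest-scoring peaks taken from each list (right, log axis); bars are exact 95% intervals for counting error. At left both shares climb with score to 89.8% and 87.0%; at right the solid lines peak near 10000 peaks, while the dashed lines, which set the top peaks against the whole other list, stay above 80% up to 20000.

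The rank of a shared site often differed. Of the 1000 highest-scoring SOX13lo peaks, 92.6% met some DP peak, but 56.6% met one of the 1000 highest-scoring DP peaks. The matching values for DP were 92.0% and 56.8%. At 10000 peaks each, 67.5% of SOX13lo peaks and 65.4% of DP peaks met the other top list, the highest shares among the sizes tried. Only 74 of the 1000 strongest SOX13lo peaks and 80 of the 1000 strongest DP peaks had no counterpart at any score.

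Merging all peaks of both lists gave 134577 regions, of which 34112 (25.3%) were in both, 25751 in SOX13lo only and 74714 in DP only. With equal numbers there were 93711 regions, of which 30712 (32.8%) were in both, 29191 in SOX13lo only and 33808 in DP only. Regions of both lists had a median width of 181 bp with all peaks, against 29 bp for each of the 2 exclusive classes. With equal numbers the medians were 195 bp in both, 29 bp in SOX13lo only and 98 bp in DP only. A region in both joins peaks of both lists, so part of its greater width follows from the merging. Of regions in both, 67.1% were also in SOX13hi, 71.6% in transgenic SOX13hi and 45.3% in transgenic SOX13lo. Of regions in SOX13lo and not DP, 26.8%, 29.4% and 11.8% were in those 3 lists, and 58.1% were in none of them. Of regions in DP and not SOX13lo, 8.31%, 11.9% and 3.61% were in those lists, and 82.9% were in none. Sites that SOX13lo shared with DP were thus those most often seen in the other γδ libraries too, and most of the sites of SOX13lo alone were seen in no other library. The classes also differed in width and score, with a median top SOX13lo score of 24 in both and 11 in SOX13lo only. A wider region meets a peak of any list more easily by the 1 bp rule. The contrast between classes cannot be told apart from these differences.

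Where the lists departed along the genome was read from region counts in 100 kb windows of the autosomes. With equal numbers, 7284 windows held at least 6 regions in the 2 lists together, after 4 windows dense in all 5 libraries were left out. Taking a larger count of at least 5 and at least 2 times the smaller, 822 windows (11.3%) had more SOX13lo regions and 1188 (16.3%) more DP regions. With all peaks, and DP counts scaled by 0.549 to the SOX13lo total, the order turned: 913 of 8303 windows (11%) had more SOX13lo regions and 830 (10%) more DP regions. Both ways of counting gave the same call to 641 of the 822 windows and 712 of the 1188. The excess of windows towards DP therefore depended on the scaling, and no direction over all windows is read from it. Equal numbers of peaks also gave unequal numbers of regions, 59551 for SOX13lo and 64304 for DP.

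Many of these windows held few regions. The smallest pair that passes the rule, 5 against 2, has intervals of 1.62 to 11.7 and 0.242 to 7.22, which overlap. Among the 1780 windows with 20 or more regions, 86 (4.83%) had more SOX13lo regions and 223 (12.5%) more DP regions. Asking instead that the exact Poisson intervals of the 2 counts be apart left 35 windows (0.481%) with more SOX13lo regions and 58 (0.796%) with more DP regions. These numbers were 6 and 5 in the upper 50% of each list by score, and 0 and 0 with 20000 top peaks from each, where windows held fewer regions. Of the 58, 7 lay on chromosome 11, 7 on chromosome 15 and 6 on chromosome 14. Of the 35, 5 lay on chromosome 2 and 4 on chromosome 13. Chromosomes 11 and 15 also had the lowest ratios of SOX13lo to DP peaks with equal numbers, 0.808 and 0.844, and chromosome 3 the highest, 1.16.

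**Figure D2:**
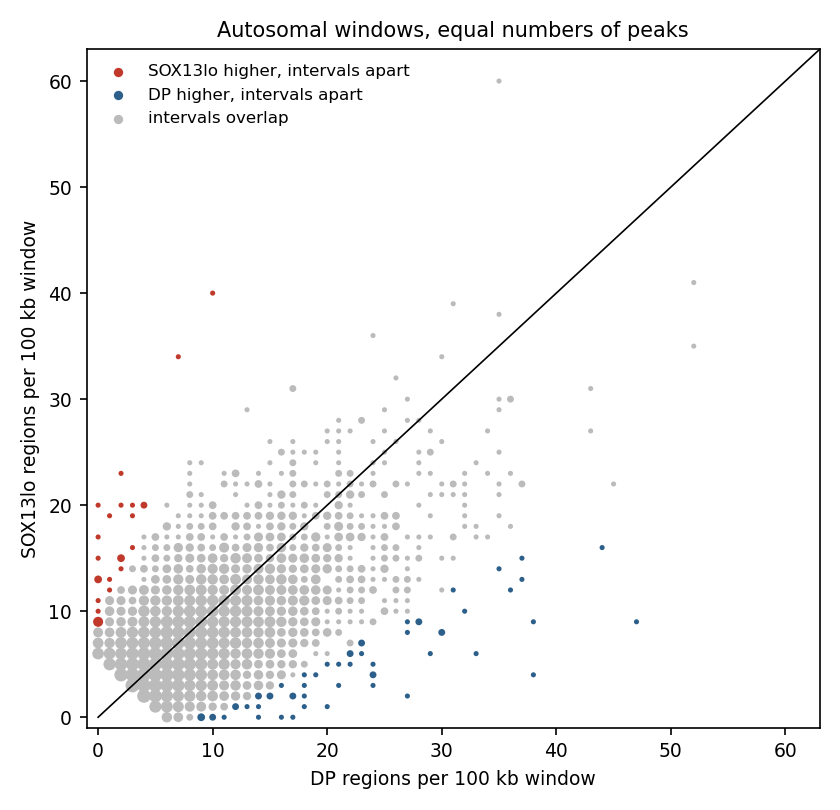
Regions per 100 kb autosomal window in SOX13lo (vertical) and DP (horizontal) with 65744 peaks from each list; larger points stand for more windows with the same pair of counts, the line marks equal counts, and colour marks windows whose exact 95% Poisson intervals were apart. Most windows lie in the grey cloud around the line, with 35 red windows above it and 58 blue windows below it.

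Among loci of the DP programme, CD8 departed most. With all peaks the Cd8 interval held 10 regions in SOX13lo, 8 in SOX13hi, 11 and 3 for transgenic SOX13hi and transgenic SOX13lo cells, against 138 in DP. All-peak counts of a locus are unscaled, and wherever the other γδ lists appear beside them, regions were merged from all 5 lists. With equal numbers 7 of the 10 SOX13lo regions were also in DP, which is 9.86% of the 71 DP regions. Strong DP sites were missing as well as weak ones: 4 of the 14 Cd8 peaks in the top 10% of the DP list met a SOX13lo peak, and widening the search to 200 bp added none. Over all autosomes 9631 of 11071 such DP peaks (87.0%) met a SOX13lo peak, and 93.6% had one within 200 bp. A stretch of 82.7 kb in this interval, chr6:71307569-71390300, held 57 DP peaks, 0 SOX13lo peaks, 1 peak in each of SOX13hi and transgenic SOX13hi and 0 in transgenic SOX13lo. The strongest SOX13lo peak of the interval, chr6:71390624-71390766, lay just past that stretch and met DP.

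The Rag1 and Rag2 interval (chr2:101400001-101500000), which holds the recombinase genes, had 12 SOX13lo regions (6.20 to 21.0) against 36 DP regions (25.2 to 49.8) with equal numbers, and 12 against 68 with all peaks. Of its 5 DP peaks in the top 10%, 2 met SOX13lo. Satb1, which encodes a chromatin organiser abundant in thymocytes (chr17:51800001-52000000), had 16 SOX13lo regions (9.15 to 26.0) against 37 DP regions (26.1 to 51), with 4 in both. Of its 4 top-10% DP peaks, 2 met SOX13lo and all 4 had a SOX13lo peak within 200 bp. Dntt, which encodes the enzyme that adds bases at receptor joins (chr19:41100001-41200000), had 6 SOX13lo regions (2.20 to 13.1) against 19 DP regions (11.4 to 29.7), with intervals that overlapped.

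The other 3 loci of the DP list departed less with equal numbers. Cd4 (chr6:124800001-124900000) held 18 SOX13lo and 26 DP regions with 12 in both, and 5 of its 6 top-10% DP peaks met SOX13lo. Ptcra, which encodes the pre-T cell receptor α chain (chr17:46800001-47000000), held 12 SOX13lo and 22 DP regions with 9 in both, and the 3 top-10% DP peaks there all met SOX13lo. The 3′ end of Tcra and Tcrd, where the α and δ chain genes lie together (chr14:54700001-54900000), held 14 SOX13lo and 25 DP regions. With all peaks scaled it held 14 SOX13lo regions against 33.5 in DP, past the 2-fold rule. With 20000 top peaks from each list the order of the loci changed. SOX13lo minus DP was then -8 at Cd4, against -6 at Rag1 and Rag2, -5 at Satb1 and -4 at Dntt. It was -2 at the 3′ end of Tcra and Tcrd and -1 at Ptcra. With equal numbers, counts were thus lower in SOX13lo at all 7 loci of the list, with intervals apart at 3 and the 2-fold rule passed by 4. Of the 11 windows of the list, 7 (63.6%) had more DP regions by the 2-fold rule and 0 more SOX13lo regions, beside 16.3% and 11.3% of all windows. Of the 37 top-10% DP peaks at these loci, 21 (56.8%, 39.5 to 72.9%) met SOX13lo, and all 7 top-10% SOX13lo peaks there met DP.

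**Figure D3:**
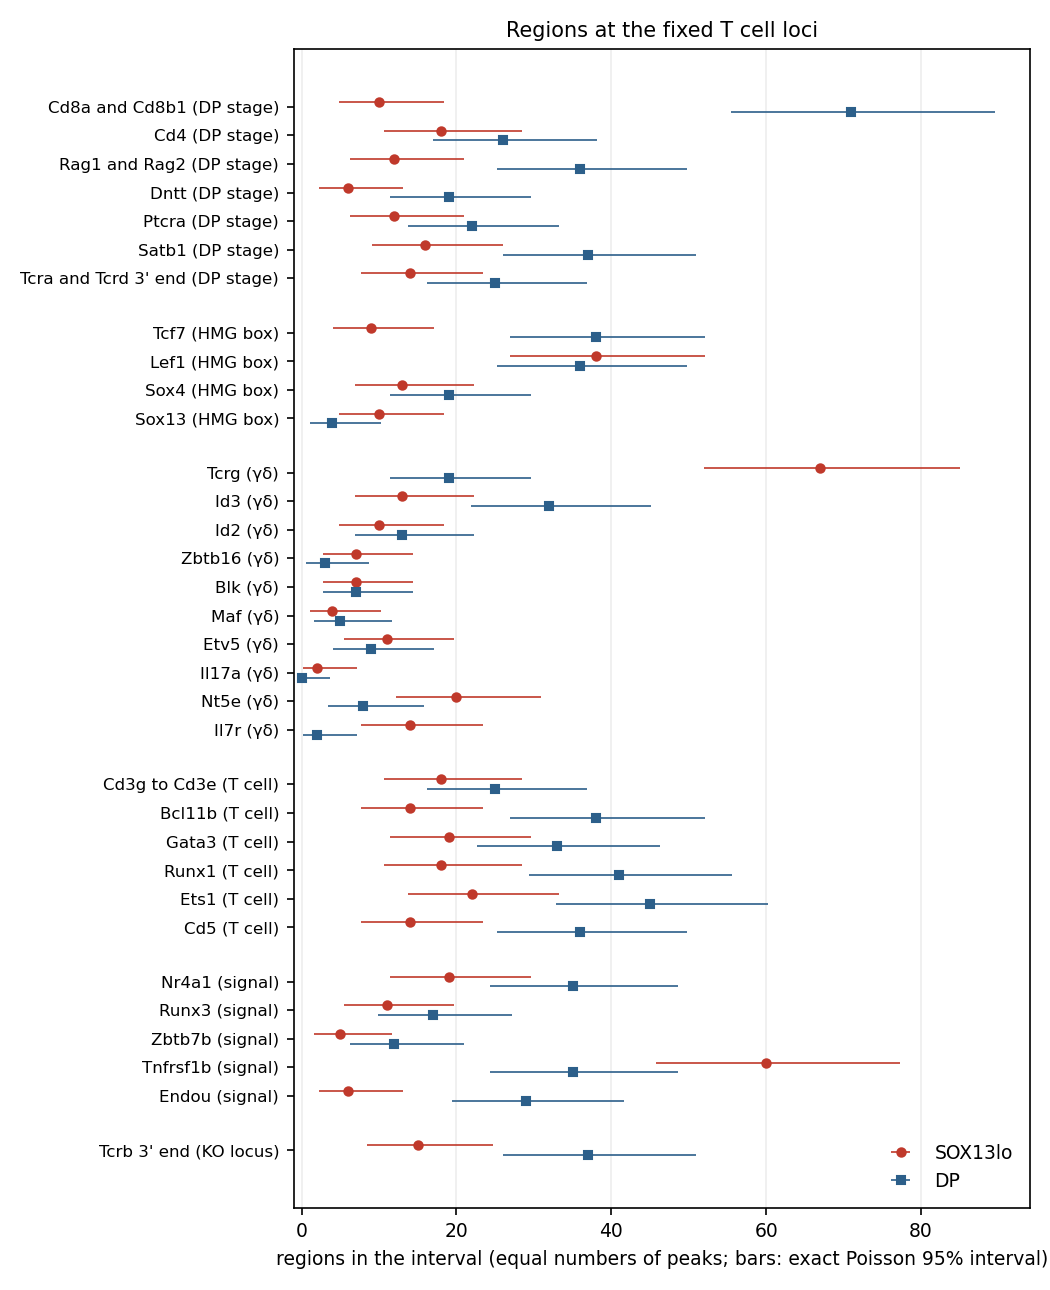
Regions in each interval of the T cell loci with 65744 peaks from each list, red circles for SOX13lo and blue squares for DP; bars are exact 95% Poisson intervals and cover counting error only, and intervals span from 100 to 300 kb. Cd8a and Cd8b1 (10 against 71) and Tcrg (67 against 19) stand farthest apart, while Lef1 (38 against 36) overlaps almost fully.

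Among the HMG box genes, Tcf7 and Lef1 parted. Tcf7, which encodes TCF1, a factor of early T cell development (chr11:52000001-52100000), held 9 SOX13lo regions (4.12 to 17.1) against 38 DP regions (26.9 to 52.2), and 9 against 76 with all peaks. With all peaks SOX13hi held 2, transgenic SOX13hi 11 and transgenic SOX13lo 6. The strongest Tcf7 peaks of the lists were neighbours that did not overlap, chr11:52089058-52089085 in SOX13lo and chr11:52089119-52089147 in DP, so presence by 1 bp counted as absent a site that both lists mark within 200 bp. Lef1 (chr3:130800001-131000000) held 38 SOX13lo regions (26.9 to 52.2) and 36 DP regions (25.2 to 49.8), with 21 in both. All 3 top-10% DP peaks at Lef1 met SOX13lo, and all 4 top-10% SOX13lo peaks met DP. With all peaks Lef1 held 37 regions in SOX13lo, 12 in SOX13hi, 17 and 9 for transgenic SOX13hi and transgenic SOX13lo cells, against 64 in DP. With 32167 top peaks from each of the 5 lists these counts were 15, 7, 8, 9 and 19. The transgenic SOX13lo list holds 32167 autosomal peaks in all, so its weakest peaks count, while only the strongest of the 110707 DP peaks do. At Lef1 the SOX13lo count thus stood nearer to DP than those of the other γδ lists did, both ways, in libraries of unknown depth.

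Sox4, another HMG box gene of early lymphocytes (chr13:29000001-29100000), held 13 SOX13lo and 19 DP regions, with overlapping intervals. Sox13 itself (chr1:135200001-135400000) held 10 SOX13lo regions (4.80 to 18.4) and 4 DP regions (1.09 to 10.2) with equal numbers, but 10 and 15 with all peaks, unscaled. SOX13hi held 1 region there with all peaks, and the transgenic SOX13hi and SOX13lo lists held 25 and 13. With 32167 top peaks from each list Sox13 held 1 region in SOX13lo, 1 in SOX13hi, 10 and 13 in those transgenic lists, and 1 in DP. The 13 come from the whole transgenic SOX13lo list, weak peaks included. SOX13lo minus DP turned to -1 with peaks wider than 50 bp, so it gives no direction. The reporter alters 1 Sox13 allele in all γδ mice and none in the DP mice.

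Loci of γδ cells were mixed. Within Tcrg 12 of the 67 SOX13lo regions were also in DP, and the window chr13:19400001-19500000 alone held 40 SOX13lo regions (28.6 to 54.5) against 10 DP regions (4.80 to 18.4). With all peaks that window held 39 regions in SOX13lo, 33 in SOX13hi, 29 and 7 for transgenic SOX13hi and transgenic SOX13lo cells, against 16 in DP. A stretch of 15.7 kb there, chr13:19432469-19448158, held 18 SOX13lo peaks, 11, 13 and 2 in those 3 lists and 0 in DP. With all peaks, all 3 top-10% SOX13lo peaks of Tcrg had a DP peak within 200 bp although 1 met one directly. That 1 was the strongest SOX13lo peak of the locus, chr13:19448167-19448195. With equal numbers no DP peak met it. The DP peak there was thus among those left out, with a score of 8 or less. At this site a strong SOX13lo peak therefore stood beside a weak DP peak.

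Il7r, which encodes the interleukin 7 receptor α chain that DP cells switch off (chr15:9400001-9500000), held 14 SOX13lo regions (7.65 to 23.5) against 2 DP regions (0.242 to 7.22), and both DP regions were in SOX13lo. The strongest peaks there overlapped, chr15:9459468-9459763 in SOX13lo and chr15:9459627-9459686 in DP. Nt5e, which encodes the surface enzyme CD73, a mark of γδ cells that have received a receptor signal (chr9:88200001-88300000), held 20 SOX13lo regions (12.2 to 30.9) against 8 DP regions (3.45 to 15.8), with intervals that overlapped. With all peaks Nt5e held 20 regions in SOX13lo, 6 in SOX13hi, 7 and 1 for transgenic SOX13hi and transgenic SOX13lo cells, against 10 in DP. SOX13lo had the highest count of the 5 lists there.

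At Id3, which encodes an inhibitor of E proteins induced by receptor signals (chr4:135600001-135800000), SOX13lo held 13 regions (6.92 to 22.2) against 32 in DP (21.9 to 45.2), with intervals that overlapped. Genes of the IL-17 programme held few regions in both lists. Zbtb16, which encodes PLZF, held 7 SOX13lo and 3 DP regions, Blk, a kinase gene of IL-17-producing γδ cells, 7 and 7, and Maf, a factor of the same cells, 4 and 5. Etv5 held 11 SOX13lo and 9 DP regions, Id2, a relative of Id3, 10 and 13, and Il17a itself 2 and 0. None of these 6 had intervals apart. Over the 10 γδ loci intervals were apart at 2, Tcrg and Il7r. Of the 11 windows tested in this list, 4 (36.4%) had more SOX13lo regions and 2 (18.2%) more DP regions, beside 11.3% and 16.3% of all windows, so the share with more DP regions was near that of all windows.

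Genes of general T cell identity held more regions in DP. Bcl11b, the commitment factor (chr12:109100001-109300000), had 14 SOX13lo regions (7.65 to 23.5) against 38 DP regions (26.9 to 52.2). Runx1, a factor of T cell development (chr16:92600001-92900000), had 18 SOX13lo regions (10.7 to 28.4) against 41 DP regions (29.4 to 55.6). Cd5, which encodes a receptor that dampens receptor signals (chr19:10700001-10900000), had 14 SOX13lo regions (7.65 to 23.5) against 36 DP regions (25.2 to 49.8). These 3 had intervals apart. Ets1, a factor expressed throughout T cell development (chr9:32500001-32600000), had 22 SOX13lo regions (13.8 to 33.3) against 45 DP regions (32.8 to 60.2), with intervals that just overlapped. Gata3, a T lineage factor, held 19 and 33, and the Cd3g to Cd3e cluster, which encodes receptor signalling chains, 18 and 25. Of the 12 windows of this list, 8 (66.7%) had more DP regions and 0 more SOX13lo regions, beside 16.3% and 11.3% of all windows.

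Strong DP sites of these T cell loci were in part present in SOX13lo. Of their 31 top-10% DP peaks, 22 (71.0%, 52.0 to 85.8%) met a SOX13lo peak, below the 87.0% over all autosomes. Within 200 bp 26 (83.9%) had one, beside 93.6% over all autosomes. No interval was computed for that share, so no difference is read from it. All 5 top-10% SOX13lo peaks of these loci met DP. The strongest DP peak met no SOX13lo peak at Runx1 (chr16:92741665-92741750), Cd5 (chr19:10858419-10859012) and the Cd3g to Cd3e cluster (chr9:44788497-44788542). All 3 top-10% DP peaks of the Cd3 cluster, this strongest one included, nonetheless had a SOX13lo peak within 200 bp. At Runx1 4 of 5 top-10% DP peaks had one, and at Cd5 4 of 6. At Gata3 the strongest SOX13lo peak, chr2:9799920-9800652, and the strongest DP peak, chr2:9799506-9800652, ended at the same base.

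**Figure D4:**
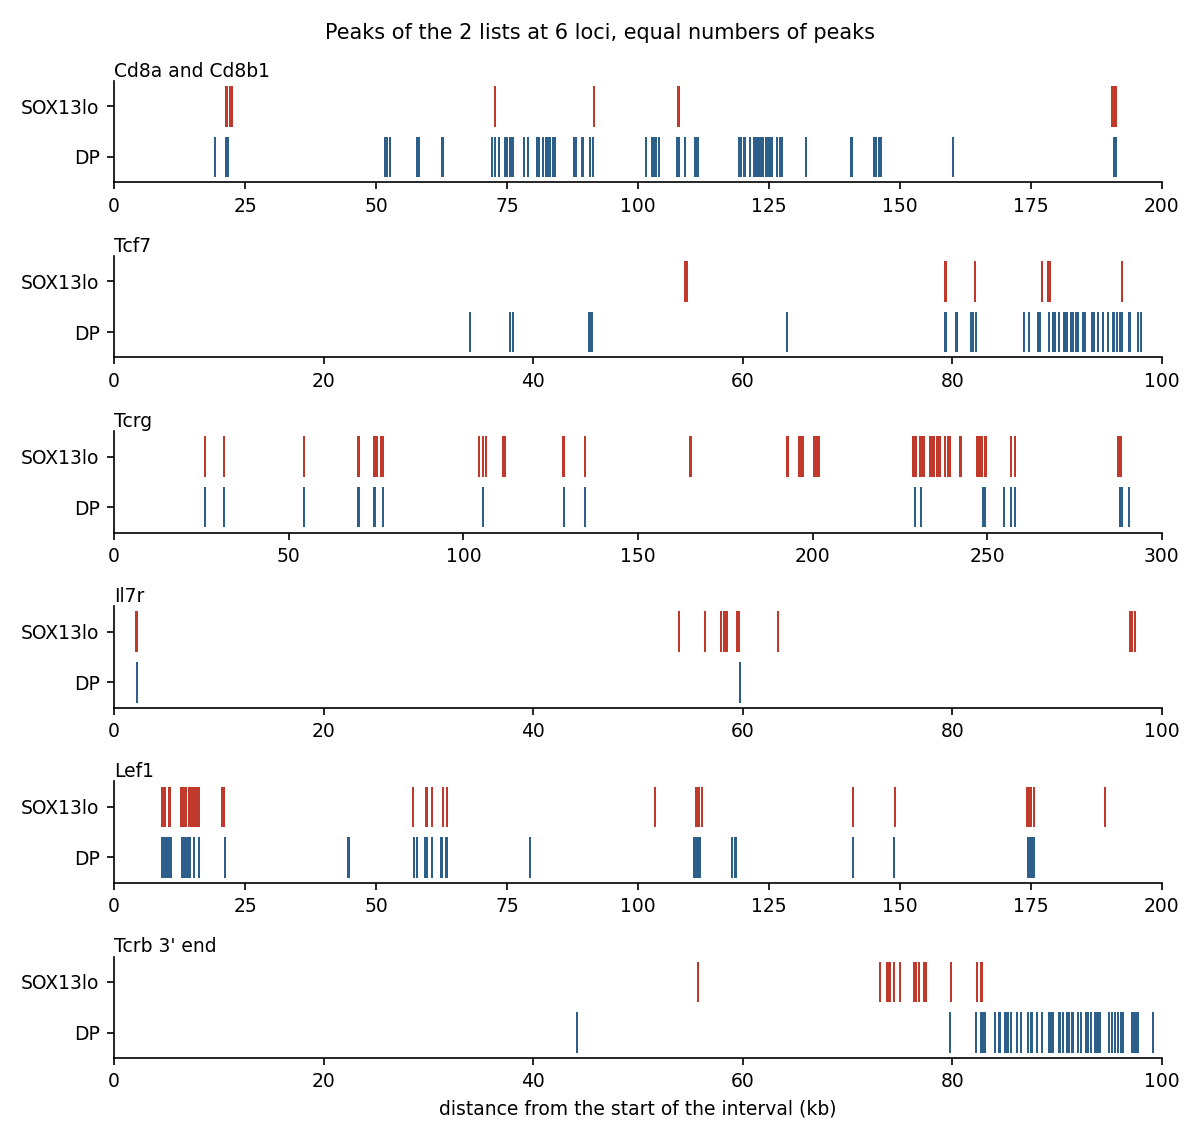
Peaks of SOX13lo (red, upper row of each pair) and DP (blue, lower row) with 65744 peaks from each list, by distance in kb from the start of 6 intervals; bars narrower than 0.2% of an interval are drawn at that width. DP clusters in the Cd8 interval have few SOX13lo counterparts, Tcrg and Il7r show SOX13lo clusters with few in DP, Lef1 clusters coincide, and at the 3′ end of Tcrb the SOX13lo peaks stop where the 19.8 kb stretch without γδ peaks begins.

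Genes of receptor signals and lineage choice were mixed. Endou, which encodes an endoribonuclease (chr15:97500001-97600000), held 6 SOX13lo regions (2.20 to 13.1) against 29 DP regions (19.4 to 41.6). Tnfrsf1b, which encodes a receptor for tumour necrosis factor (chr4:144800001-144900000), held 60 SOX13lo regions (45.8 to 77.2) against 35 DP regions (24.4 to 48.7), with 24 in both and intervals that overlapped. With all peaks, unscaled, Tnfrsf1b held 57 regions in SOX13lo, 27 in SOX13hi, 26 and 12 for transgenic SOX13hi and transgenic SOX13lo cells, against 61 in DP. Its excess over DP thus depended on allowing for the length of the DP list. Nr4a1, an early response gene of receptor signals, held 19 SOX13lo and 35 DP regions, Runx3, a factor of CD8 and innate-like lineages, 11 and 17, and Zbtb7b, which encodes the CD4 lineage factor ThPOK, 5 and 12, with intervals that overlapped at each.

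Over the 36 loci, 24 held fewer regions in SOX13lo than in DP, 11 held more and Blk held the same number. Of the 7284 windows, 3691 held fewer regions in SOX13lo and 2695 held more. Intervals were apart at 2 loci with more SOX13lo regions, Tcrg and Il7r, and at 9 with more DP regions. The 9 were Cd8a and Cd8b1, Rag1 and Rag2, Satb1, Tcf7, Bcl11b, Runx1, Cd5, Endou and the 3′ end of Tcrb. Of all windows, 0.481% were apart with more SOX13lo regions and 0.796% with more DP regions. The Tcrb interval overlaps the stretch without γδ peaks, which held 36 DP peaks with equal numbers and runs past the interval's end. Absence of that DNA in γδ cells cannot be told apart there, so no direction is read from Tcrb. The median difference, SOX13lo minus DP, was -13 regions over the DP loci, -22.5 over the T cell loci, -2 over the HMG box loci, -7 over the signal loci and 2 over the γδ loci, beside -1 over all 7284 windows. With 20000 top peaks from each list the difference was -17 at Cd8a and Cd8b1, -4 at Tcf7, 0 at Lef1, 4 at Il7r and 11 at Tcrg. Loci of more than 1 window give larger differences than single windows, and the loci were chosen because they matter in thymocytes. These counts and medians thus describe the lists only.

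Outside the fixed loci, the windows where SOX13lo exceeded DP most were named by the difference in regions with equal numbers. Chr1:95900001-96000000 held 34 SOX13lo regions (23.5 to 47.5) against 7 DP regions (2.81 to 14.4), and each of the 7 DP regions was also in SOX13lo. Chr2:148200001-148300000 held 23 (14.6 to 34.5) in SOX13lo against 2 (0.242 to 7.22) in DP. Chr17:63200001-63300000 held 20 (12.2 to 30.9) in SOX13lo against 0 in DP (up to 3.69). With all peaks, SOX13hi and transgenic SOX13hi held 17 and 19 regions in the first of these windows against 16 in DP, 16 and 14 in the second against 3, and 18 and 13 in the third against 0. Transgenic SOX13lo held 12, 6 and 1 in the same windows. In the first window the other γδ lists thus lay close to DP or below it in unscaled counts only. With 32167 top peaks from each list that window held 20 regions in SOX13lo and 13 in SOX13hi. Transgenic SOX13hi then held 9, transgenic SOX13lo 12 and DP 4, so all 4 γδ lists lay above DP. The 12 come from the whole transgenic SOX13lo list, weak peaks included, while DP was cut to its strongest peaks.

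Chr10:8200001-8300000 held 19 SOX13lo regions against 1 in DP, chr3:115400001-115500000 held 20 against 2, and chr17:13800001-13900000 held 20 against 3, each with intervals apart. Chr10:119900001-120000000 differed from the rest in the other γδ lists. It held 17 regions in SOX13lo (9.90 to 27.2) and 0 in DP (up to 3.69), and with all peaks 4 in SOX13hi, 2 in transgenic SOX13hi and 0 in transgenic SOX13lo. It lies in a stretch of 346 kb, chr10:119708142-120053772, with 28 SOX13lo peaks, 7, 5 and 1 in those lists and 0 in DP. Chr2:58000001-58100000, with 29 SOX13lo and 13 DP regions, and the Tnfrsf1b window complete the 10 named, and these 2 had overlapping intervals.

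Of the 10 windows with the largest DP excess, 6 lay in the fixed loci: both Cd8 windows, Tcf7, Rag1 and Rag2, Endou and Ets1. The largest was chr15:74700001-74800000, with 9 SOX13lo regions (4.12 to 17.1) against 47 DP regions (34.5 to 62.5) and 8 in both, and 9 against 84 with all peaks. Chr15:66600001-66700000 held 16 SOX13lo regions (9.15 to 26.0) against 44 DP regions (32.0 to 59.1), with 11 in both. Chr8:125200001-125300000 held 2 SOX13lo regions (0.242 to 7.22) against 27 DP regions (17.8 to 39.3), and both were in DP. Chr7:104800001-104900000 held 13 (6.92 to 22.2) in SOX13lo against 37 (26.1 to 51) in DP, with 11 in both. In these windows most SOX13lo regions were also DP regions. All 10 held fewer regions in each of the other 3 γδ lists than in DP, with all peaks and with the same number of top peaks in all 5 lists.

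**Figure D5:**
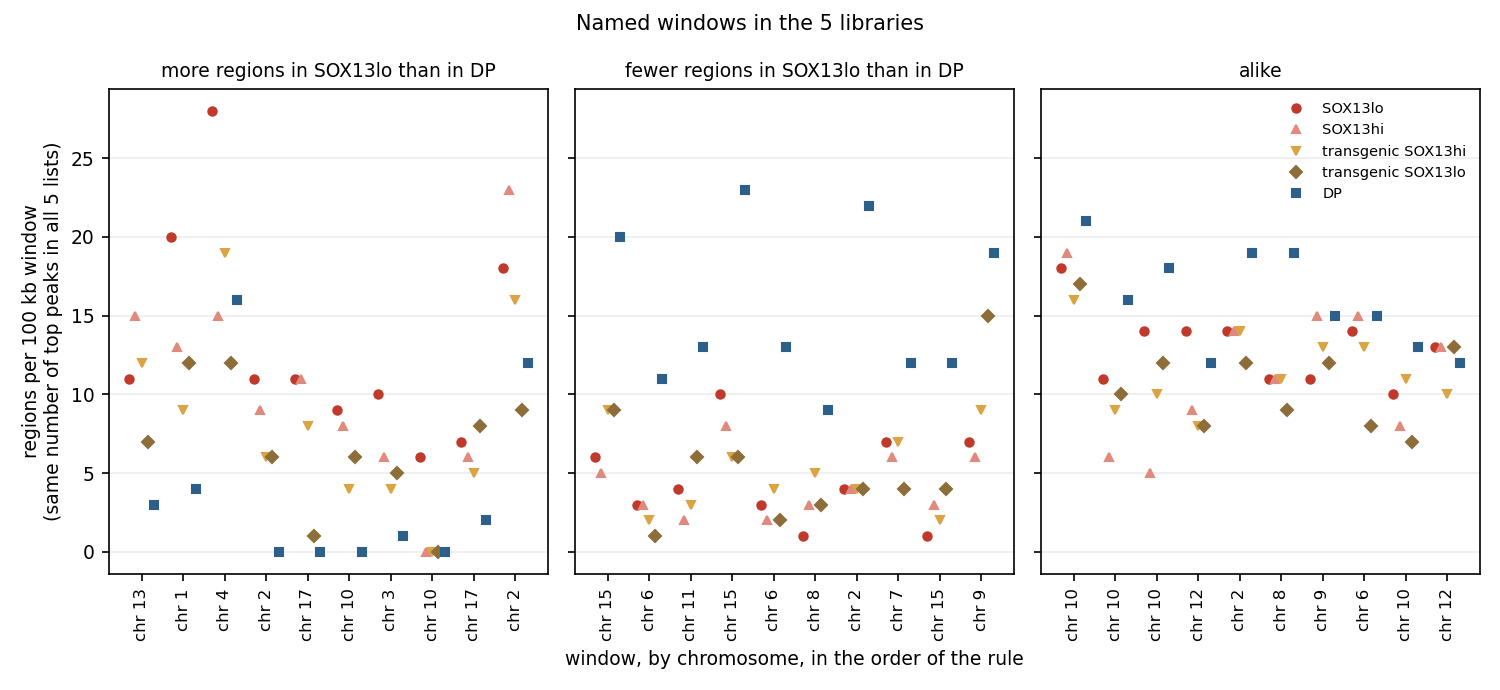
Regions in the named 100 kb windows for the 5 libraries, with 32167 highest-scoring autosomal peaks from each list, in 3 panels of 10 windows each (more regions in SOX13lo, fewer, alike), ordered as the rule ranks them and marked by chromosome. The 32167 peaks are the whole transgenic SOX13lo list and the strongest part of each other list. In the middle panel DP (blue squares) lies above all 4 γδ lists in all 10 windows; in the left panel SOX13lo (red circles) lies above DP in all 10, and at the second chromosome 10 window it is the only list above 0.

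Long stretches free of SOX13lo peaks but rich in DP peaks pointed to further regions. Chr3:50247523-50691011 (443 kb) held 0 SOX13lo and 63 DP peaks, with 1, 4 and 3 in SOX13hi, transgenic SOX13hi and transgenic SOX13lo. Chr11:34647489-35319007 (672 kb) held 0 SOX13lo and 49 DP peaks, and chr5:140685049-140797510 (112 kb) held 0 and 47. In the other direction, chr17:63168902-63645032 (476 kb) held 24 SOX13lo and 0 DP peaks, with 21, 19 and 2 in the other γδ lists. Chr5:13629266-15815583 (2186 kb) held 19 SOX13lo and 0 DP peaks, and chr1:82722662-82835641 (113 kb) held 17 and 0. Stretches were ranked by the number of peaks of the other list and were chosen with their values seen. Length was not allowed for, so a long stretch, such as that of 2186 kb with 19 peaks, can be poor in peaks.

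Windows where SOX13lo resembled DP most were those with the most regions in both lists among windows whose counts lay close to each other. Chr10:81000001-81100000 held 38 SOX13lo regions (26.9 to 52.2) and 35 DP regions (24.4 to 48.7), with 20 in both. Chr10:59300001-59400000 held 27 and 22, chr10:126700001-126800000 held 27 and 29, chr12:88200001-88300000 held 30 and 27, and chr2:172800001-172900000 held 30 and 35, with 18 in both in each. The other 5 were chr8:129100001-129200000, chr9:107400001-107500000, chr6:70700001-70800000, chr10:79400001-79500000 and chr12:103900001-104000000, with 21 to 30 SOX13lo regions and 22 to 36 DP regions. Even in such windows 15 to 20 regions were in both, so like counts did not mean the same sites throughout.

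Single peaks far from any peak of the other list were rare among strong SOX13lo peaks. No DP peak lay within 1 kb of 7654 SOX13lo peaks (11.6%), and no SOX13lo peak within 1 kb of 34183 DP peaks (30.9%). In the top 10% by score, ties included, these were 102 SOX13lo peaks (1.55%) and 551 DP peaks (4.95%). These counts used all peaks of lists of unequal length, so no difference between the lists is read from them. The strongest such SOX13lo peak, chr1:66599255-66599437, was at the 98.9 percentile of its list and was met by SOX13hi and transgenic SOX13hi. The next was chr2:149109142-149109188, met by all 3 other γδ lists, and then chr13:105364575-105364803, met by SOX13hi and transgenic SOX13hi. Of the 10 strongest, 5 were met by all 3 other γδ lists and 0 by none of them. Of the 10 strongest DP peaks with no SOX13lo peak within 1 kb, 0 were met by all 3 other γδ lists and 2 by none: chr1:186234395-186235446, which was 1052 bp wide, and chr10:6829815-6830009. The strongest, chr7:66010643-66010685, was met by SOX13hi.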

How the data were processed

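ATAC-seq peaks were analysed as the authors deposited them, 1 list per library. The submitters' processing notes name mm9 as the build. No aligner, peak caller, threshold or read depth is stated: these were not given in the sources used here. The deposited score is a whole number per peak whose meaning is not stated by labels or files; it ranked peaks within a list only. From the lists were computed 1 bp overlaps, regions merged from both lists, and regions per 100 kb window by their centre. Equal numbers were 65744 peaks, the autosomal length of the shorter list, with ties in score broken at random from a fixed seed. For all 5 lists 32167 peaks were taken, the autosomal length of the shortest, transgenic SOX13lo. Windows with 20 or more regions in all 5 libraries were left out.

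Named windows were the 10 with the largest difference in each direction with equal numbers whose scaled all-peak difference had the same sign, the 10 most alike, and the 10 strongest single peaks of each list. The 36 fixed loci were chosen for known roles; 2 others are not reported here, and no list count includes them. Members and lists were chosen with earlier results of these data known. Locus names are general knowledge of the mm9 map; a RefSeq table of another build was used only to check the chromosome, which matched for 36 of 36. Whether a peak is exonic, intronic or intergenic was not analysed here, and no sequence of that build was used here. Functions were tested on simulated lists. Each group holds 1 library, so there is no test. Alternatives were other overlap rules, peak filters, list lengths, window widths and seeds. Tools were Python 3.11.15, pandas 2.3.3 with numpy 2.4.6, matplotlib 3.10.9 and, for intervals, scipy 1.17.1.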

Additional observations from a re-analysis of the deposited data

Results flagged for a closer look

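Chromosomes X and Y lay outside the comparison. On chromosome X, the window X:47900001-48000000 held 47 SOX13lo regions (exact Poisson 95% interval 34.5 to 62.5), 40 in SOX13hi, 22 and 10 for transgenic SOX13hi and transgenic SOX13lo cells, against 5 in DP (1.62 to 11.7), with all peaks of each list. It drew attention as a signal above the DP level in data that the report does not use. Peaks on X made up 24.3 per 1000 in SOX13lo and 24.9 per 1000 in DP, and peaks on Y 1.45 per 1000 in SOX13lo and 2.89 per 1000 in DP. The cause was not tested.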

How the results depend on the processing

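Shares are given as SOX13lo with all peaks, DP with all peaks, SOX13lo with equal numbers and DP with equal numbers. A reciprocal overlap of 50% gave 14.7, 8.73, 13.4 and 13.4%. They came to 73.6, 42.9, 64.6 and 56.7% with centres within 200 bp, 70.7, 39.8, 62.2 and 57.3% with the upper 50% by score, 55.5, 31.1, 50.1 and 45.3% with peaks wider than 50 bp, and 67.7, 37.5, 61.1 and 56.8% with peaks joined within 150 bp. Shorter equal lists gave 62.2 and 57.5% at 32167 peaks and 64.9 and 61.5% at 20000. Windows past the 2-fold rule with equal numbers (SOX13lo higher, then DP higher) were 372 and 676 with the upper 50% by score, 363 and 653 at 32167 peaks and 159 and 271 at 20000, where fewer regions were counted; 515 had more SOX13lo regions with peaks wider than 50 bp, and 754 more DP regions in 200 kb windows. With all peaks scaled they were 449 and 452 with the upper 50%, 570 and 520 with peaks wider than 50 bp, and 567 (SOX13lo higher) with peaks joined. Windows with intervals apart were 6 and 5 with the upper 50%, 8 and 10 with peaks wider than 50 bp, 11 and 13 with peaks joined, 6 and 4 at 32167 peaks and 0 and 0 at 20000; the alternatives for these windows, and counting peaks in place of regions (938 and 993 windows with equal numbers), were added after seeing the data. Adding X and Y, another seed and 50 kb windows kept every share and count within the limits used. Under 7 alternatives, 2 loci past the 2-fold rule changed sign, Sox13 and Spi1, each at -1 region with peaks wider than 50 bp; the cause was not tested. Loci not past it also changed sign: Lef1 to -5 (upper 50% by score), -1 (peaks wider than 50 bp) and -4 (32167 peaks), Runx3 to 1 under the same 3, Etv5 to -1 with peaks wider than 50 bp and Maf to 5 with peaks counted. None of the 20 departing windows changed sign under the same 7, though chr7:104800001-104900000 came to 0 at 20000 peaks. No paired analysis was possible because each group holds 1 library. Depth is unknown and the lists differ in length, which limits every comparison of absent peaks.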

Other observations

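The DP list held 7 mitochondrial peaks and the SOX13lo list 0. Of the 4 windows left out as dense in all 5 libraries, chr11:3000001-3100000 held 142 SOX13lo, 128 SOX13hi, 143 transgenic SOX13hi, 133 transgenic SOX13lo and 125 DP regions with all peaks. With 32167 top peaks from each list it held 110, 100, 121, 133 and 20. For transgenic SOX13lo 32167 peaks are the whole list, so its count says nothing about rank. The other lists lose unequal shares at this number, so no rank within a list is read from these counts. At chr9:3000001-3100000 the counts with 32167 top peaks from each list were 63, 62, 65, 67 and 41.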
